A study of Homo sapiens with 24 samples.

Results

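The transcripts described here are those of the retinoblastoma (RB) pocket protein genes and of the E2F transcription factor genes, 10 genes of the 33113 listed in the count table. They were chosen by name. RB1, RBL1 and RBL2 encode the pocket proteins RB, p107 and p130. E2F1, E2F2 and E2F3 encode activator E2Fs, E2F4 and E2F5 encode E2Fs that act mostly in repressor complexes with p107 and p130, and E2F7 and E2F8 encode atypical E2Fs that repress without a DP partner. On GRCh38, RB1 lies at chr13:48303744-48599436, RBL1 at chr20:36996349-37095997, E2F1 at chr20:33675477-33686385, E2F2 at chr1:23506438-23531233 and E2F8 at chr11:19224063-19241620.

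Pocket proteins bind E2Fs and hold back the genes needed for DNA replication until cyclin-dependent kinases phosphorylate them. The E2F1, E2F2, RBL1, E2F7 and E2F8 genes are themselves E2F targets, so the family regulates its own transcription. The adenoviral protein E1A binds the pocket proteins and releases E2F from them. Oxaliplatin, a platinum drug used against colorectal cancer, damages DNA. DNA damage induces p21, the CDK inhibitor encoded by CDKN1A, which keeps pocket proteins in their binding form.

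RNA was sequenced from HCT116, a human colorectal carcinoma cell line, and from HCT116 oxpl-R, a population derived from it by repeated pulses of oxaliplatin. Both lines carry a Tet-On E1A transgene, the controls included. Each line was left untreated (control), given doxycycline at 0.5 µg/mL to induce E1A (E1A), given oxaliplatin at 25 µM for 24 h (oxaliplatin), or given doxycycline 3 h before the same oxaliplatin exposure (E1A + oxaliplatin), with 3 biological replicates in each of the 8 groups. No group received doxycycline without the transgene, so the drug and the protein cannot be told apart. The total time with doxycycline in the E1A groups is not given here and may differ from that in the E1A + oxaliplatin groups. In comparisons of these groups, induction time and oxaliplatin therefore cannot be told apart. The resistant line is 1 derived population, so a difference between the lines is a difference from that population.

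Libraries held 24838095 to 37927720 counts, with a median of 29382753, and members were measured at 84 to 6571 counts in a library. All 6 epithelial markers were above 0 in every library. Markers of other cell types summed to 18.9 to 61.3 CPM (here counts scaled by the library total alone) against 5472 to 17743 CPM for the epithelial list. PTPRC was at 0 in 12 libraries, CD3E in 16, PECAM1 in 2 and CDH5 in 5. The other markers of that list, CD68, COL1A1, COL3A1 and DES, were above 0 in every library, COL1A1 at 12.7 to 39.9 CPM. The mitochondrial share of counts was 1.38% in HCT116 oxpl-R oxaliplatin replicate 1 and 11.0% to 19.7% in the other libraries. Genes with a count that was not whole made up 30.4% in that library and 25.3% in replicate 3 of its group. Elsewhere that share was at most 20.8%. Libraries of this group correlated with their own group at 0.940 to 0.949 on average. In the HCT116 oxaliplatin group, transcripts of at least 5000 bases were lower relative to those of at most 2000 bases in replicates 1 and 2, with log2 shifts of -0.61 and -0.53, and higher in replicate 3, with 0.43. The HCT116 controls stood at 0.29 to 0.45 on the same scale. HCT116 oxaliplatin replicate 3 and HCT116 E1A + oxaliplatin replicate 1 correlated with each other at 0.975, above their mean correlations of 0.940 with their own groups, and 15 of the 24 libraries correlated more with some library of another group than with their own group on average. That count sets the highest of many correlations against a mean, which favours other groups, so it does not place these libraries nearer to another group.

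The transgene row matched the labels in every library. From here on, CPM values are counts scaled by TMM normalization to a common library size. Ad5-E1A stood at 4.07 to 11.7 CPM in the 12 libraries without doxycycline and at 199.2 to 830.9 CPM in the 12 with it. The lowest induced value was in HCT116 E1A + oxaliplatin replicate 1, at 199.2 CPM against 537.2 and 493.9 CPM in the other replicates. Its log2 fold change was 7.32 in HCT116 and 6.51 in HCT116 oxpl-R without oxaliplatin, and 6.09 and 5.90 with it. Relative to E1A alone, E1A with oxaliplatin gave a lower transgene level in HCT116 (log2 fold change -0.93, edgeR adjusted p = 0.0115). In HCT116 oxpl-R the same difference was -0.19 (edgeR adjusted p = 0.817).

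In both lines, each group of 3 is compared below with edgeR's quasi-likelihood test across 19452 genes, and a gene is called at an adjusted p below 0.05. Shares of all genes include low-count genes, which are rarely called, so they are low marks for the members. With low-count genes filtered out, oxaliplatin called 1540 of 12009 genes in HCT116 oxpl-R, against 1188 of 19452. In HCT116 it called 3852 of 12009, against 3375 of 19452. Levels are TMM-normalized CPM of the counts, and fold changes are on the log2 scale with their standard errors. Overlap of samples between groups was checked for the members alone, so no share of all genes without overlap is given. Nothing in the labels names the separate cultures behind the replicates beyond calling them biological, so p-values measure the spread between these samples. In bulk RNA, fewer cells of a cycling type and less RNA per cell cannot be told apart.

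**Figure D1:**
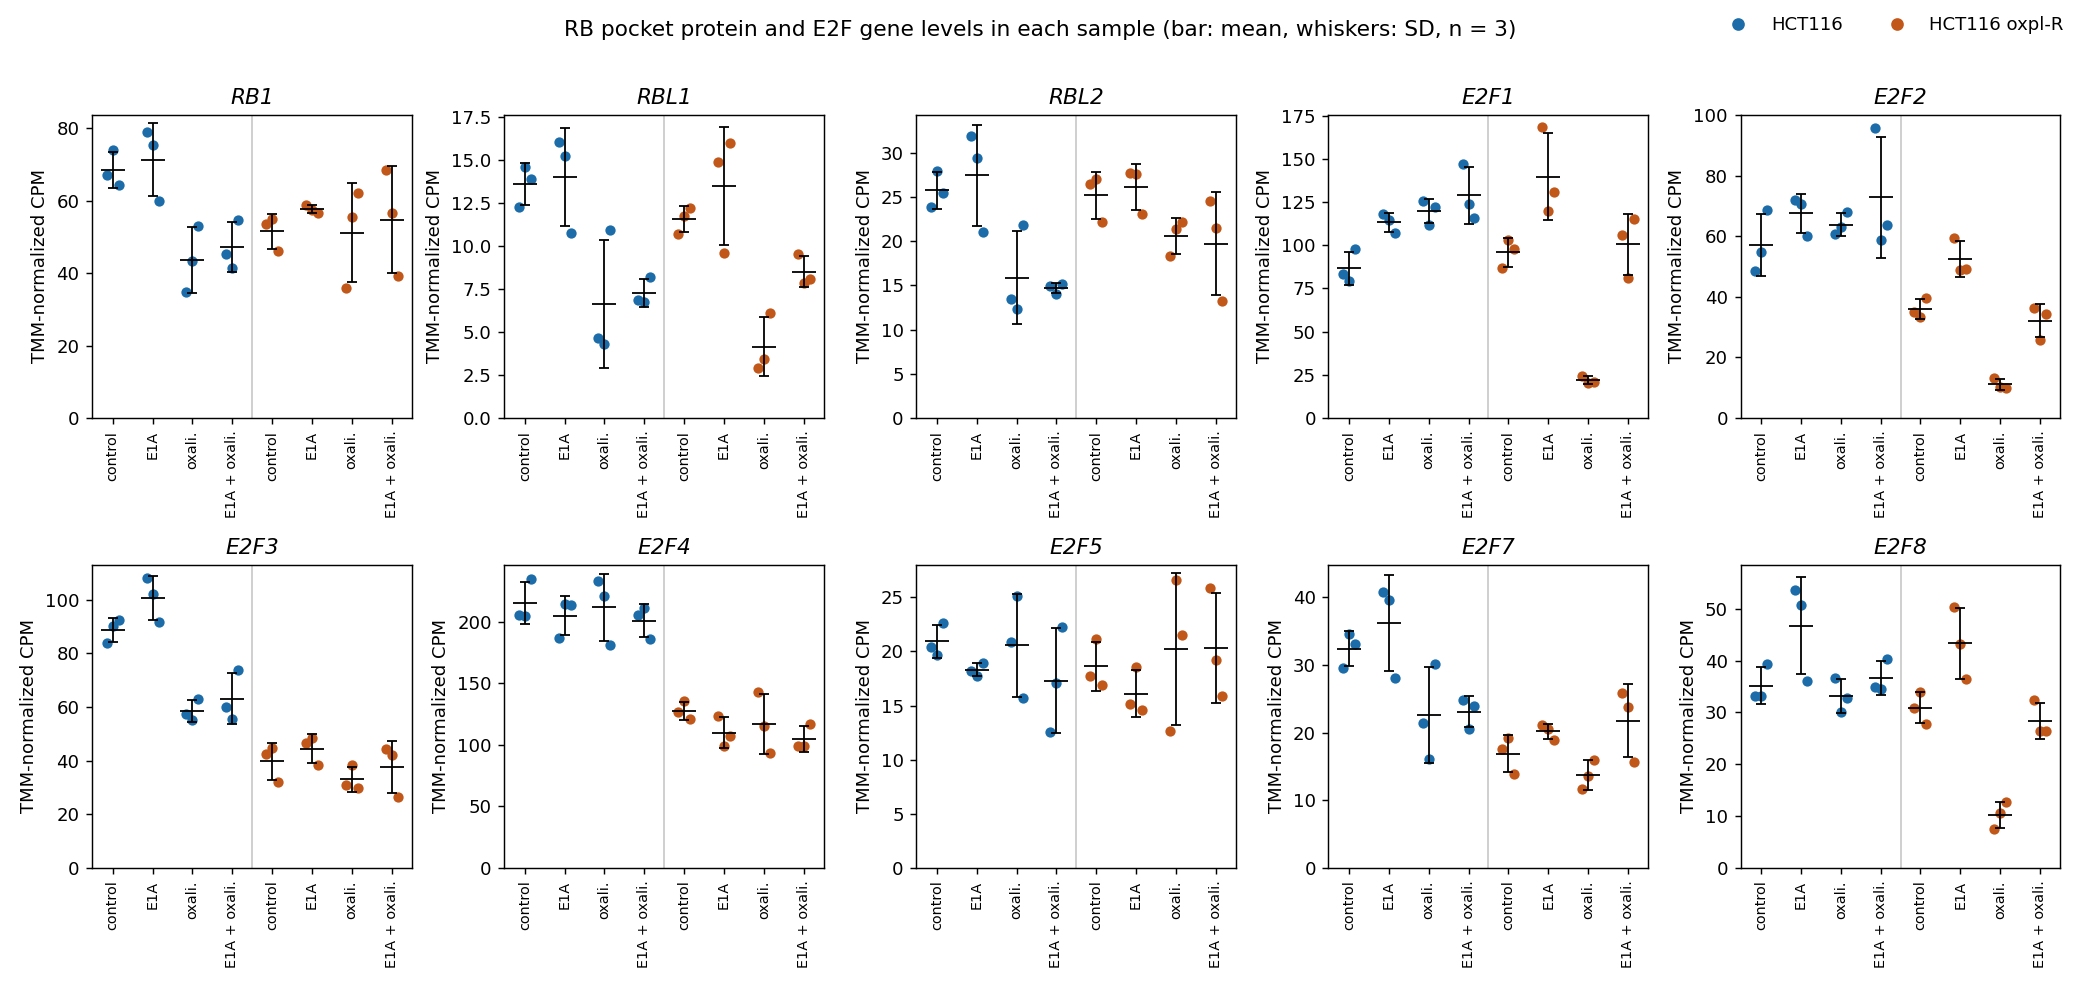
Level of each of the 10 genes in every sample, in TMM-normalized CPM on linear axes that start at 0, with the 4 groups of HCT116 left of the grey line and the 4 groups of HCT116 oxpl-R right of it; points are samples, bars are means and whiskers are SD (n = 3). In HCT116 oxpl-R given oxaliplatin, E2F1, E2F2 and E2F8 sit lower than in every other group.

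Per kilobase of canonical transcript, E2F4 was the most abundant E2F in the HCT116 control, at 101.8 CPM per kb, followed by E2F1 at 32.2 and E2F3 at 17.6. The lowest was E2F7 at 5.7 CPM per kb. Among the pocket genes RB1 held 65.1% of the summed level per kilobase in the same group, RBL2 24.0% and RBL1 10.8%. In HCT116 oxpl-R given oxaliplatin, E2F4 made up 63.2% of the summed level per kilobase of the E2F members and E2F1 9.2%, against 45.9% and 27.0% in its control. That sum leaves out E2F6, which is not a member and stood at 9.57 CPM per kb there and 10.2 in the control.

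E2F1 and E2F2 encode activators of replication genes. Their promoters are shown with that of RBL1 because all carry E2F-type letters and fell with oxaliplatin in HCT116 oxpl-R. That of E2F4, which held no such letters and was not called there, is shown beside them. The promoters were picked on these outcomes, so a link between letters and falls was not tested. The RefSeq promoter table (GRCh38.p14, 250 bases before to 50 bases after the start site) held an entry for 8 of the 10 genes. Capitals mark matches to TTTCCCGC, TTTGGCGC, TTTCGCGC or TTTGCCGC on either strand. Such a match was found in 3.33% of 27305 promoters of the same length, and in 23 of 45 promoters (51.1%) of the S-phase list described below. The CHR motif TTTGAA was in 15.4% of all promoters and in 23 of 34 (67.6%) of the G2 and M list.
E2F1, chr20:33686336-33686635, minus strand: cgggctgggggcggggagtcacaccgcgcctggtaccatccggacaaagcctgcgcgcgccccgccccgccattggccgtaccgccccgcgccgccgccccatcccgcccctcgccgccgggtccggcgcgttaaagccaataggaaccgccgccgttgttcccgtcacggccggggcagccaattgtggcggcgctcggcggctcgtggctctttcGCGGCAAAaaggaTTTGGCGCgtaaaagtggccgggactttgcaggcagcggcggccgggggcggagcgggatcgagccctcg
E2F2, chr1:23531184-23531483, minus strand: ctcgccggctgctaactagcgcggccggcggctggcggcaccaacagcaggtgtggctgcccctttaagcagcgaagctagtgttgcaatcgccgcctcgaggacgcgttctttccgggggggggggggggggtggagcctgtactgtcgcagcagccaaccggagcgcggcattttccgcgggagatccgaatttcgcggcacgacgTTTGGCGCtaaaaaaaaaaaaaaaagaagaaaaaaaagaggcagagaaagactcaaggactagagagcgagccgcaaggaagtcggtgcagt
RBL1, chr20:37095948-37096247, minus strand: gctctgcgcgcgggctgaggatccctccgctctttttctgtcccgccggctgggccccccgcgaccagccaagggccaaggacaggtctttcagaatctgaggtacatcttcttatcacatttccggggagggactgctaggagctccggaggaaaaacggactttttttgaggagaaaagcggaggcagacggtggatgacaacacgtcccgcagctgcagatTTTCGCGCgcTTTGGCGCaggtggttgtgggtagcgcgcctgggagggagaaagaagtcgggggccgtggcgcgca
E2F4, chr16:67191905-67192204, plus strand: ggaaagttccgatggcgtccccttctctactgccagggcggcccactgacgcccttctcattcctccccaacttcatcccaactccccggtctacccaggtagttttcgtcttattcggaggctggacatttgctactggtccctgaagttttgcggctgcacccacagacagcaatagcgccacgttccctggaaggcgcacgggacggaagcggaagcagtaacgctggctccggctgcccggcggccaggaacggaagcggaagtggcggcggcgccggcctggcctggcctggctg
E2F1 and RBL1 each held 2 matches and E2F2 held 1, as did E2F3, whose promoter is not printed. E2F4, RBL2 and E2F7 held none of these letters in the window. Without their first T, the letters had 2 matches in E2F7 and were in 13.1% of all promoters. With oxaliplatin in HCT116 oxpl-R, E2F3 and E2F7 were not called, and E2F8, called lower, had no promoter entry. The entry for RB1 starts inside the gene and was not used. That for RBL2, chr16:53434221-53434520, also lies inside the annotated gene, which starts at 53433977, and the letters before that start were not searched. A match is a description of letters only.

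Oxaliplatin in HCT116 oxpl-R lowered E2F1, E2F2, E2F8 and RBL1, 4 of the 10 genes, against 3.01% of all genes tested that were called lower. E2F1 stood at 86.6, 103 and 97.8 CPM in the control samples and at 24.5, 20.3 and 20.7 CPM after the drug. The groups did not overlap, and the log2 fold change was -2.13 ± 0.18 (SE, edgeR adjusted p = 5.95e-10), a 4.38-fold lower level. E2F2 fell from 34.9, 33.5 and 39.7 CPM to 13.3, 10.2 and 9.95 CPM, with a log2 fold change of -1.69 ± 0.20 (SE, edgeR adjusted p = 4.12e-07). E2F8 fell from 30.9, 33.9 and 27.9 CPM to 7.58, 10.5 and 12.7 CPM, with -1.59 ± 0.20 (SE, edgeR adjusted p = 1.78e-06). In none of these genes did any treated sample reach a control sample.

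RBL1, encoding p107, stood at 10.7, 11.8 and 12.2 CPM in the HCT116 oxpl-R control and at 2.88, 3.46 and 6.10 CPM with oxaliplatin. The fold change was -1.48 ± 0.30 (SE, edgeR adjusted p = 0.00132), the groups being apart. All 4 calls held under each alternative fit, and the library with the low mitochondrial share was left out in 1 of them. The other 6 genes were not called, with log2 fold changes from -0.30 for E2F7 to 0.12 for E2F5. RB1 stood at 35.8, 55.6 and 62.2 CPM with oxaliplatin and at 53.5, 55.0 and 46.2 CPM without, so its samples overlapped. The samples of RBL2, also not called, did not overlap.

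Oxaliplatin in HCT116 lowered RB1, RBL1, RBL2 and E2F3, 4 of 10 beside 8.61% of all genes called lower, and 0 were higher beside 8.74%. RBL1 stood at 12.3, 14.6 and 13.9 CPM in the control and at 4.66, 4.28 and 10.9 CPM with the drug, with a log2 fold change of -1.04 ± 0.29 (SE, edgeR adjusted p = 0.0134). RB1 fell by 0.65 (adjusted p = 0.0278), RBL2 by 0.70 (0.0331) and E2F3 by 0.60 (0.0242) on the log2 scale. These transcripts are 4768 to 5686 bases long, and the sample that was highest in all 4 of them, oxaliplatin replicate 3, was also the one with the length shift of 0.43 given above. The median of all genes with at least 100 mean counts was -0.14 in this comparison, against -0.05 after RLE normalization. With the length trend removed, RBL1 alone was called, and after RLE normalization also only RBL1. Fitted on the compared groups alone, RB1 and E2F3 were called, and RBL1 and RBL2 were not. Leaving out control replicate 2 or oxaliplatin replicate 1 or 2 gave 0 members called lower, leaving out control replicate 1 or 3 gave 1, and leaving out oxaliplatin replicate 3 gave 5. In the same order, these fits called 1896, 1844, 2401, 2050, 2872 and 4388 of all genes in either direction, against 3375 with every library. The part of the length shift in these values was not tested beyond that adjustment.

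E2F1 in HCT116 did not fall. It stood at 83.2, 79.2 and 97.5 CPM in the control and at 125, 112 and 122 CPM with oxaliplatin, which do not overlap. Its log2 fold change was 0.47 ± 0.17 (SE, edgeR adjusted p = 0.0528), outside the threshold, and it was called higher in 11 alternative fits, 8 of which kept every library. E2F2 (0.16 ± 0.19, adjusted p = 0.672) and E2F8 (-0.09 ± 0.20, adjusted p = 0.927) were not called. E2F2 held 48.5, 54.8 and 68.5 CPM without and 60.6, 62.9 and 68.0 CPM with the drug. The E2F8 values were 33.1, 33.1 and 39.4 CPM without and 36.6, 30.1 and 32.8 CPM with it, so that both genes overlapped.

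The difference between the lines in their response to oxaliplatin was tested directly as an interaction. It was called for E2F1 (-2.60 ± 0.24, edgeR adjusted p = 1.44e-07), E2F2 (-1.85 ± 0.28, adjusted p = 0.000142) and E2F8 (-1.50 ± 0.28, adjusted p = 0.00214), 3 of 10 beside 1.91% of all genes called in that direction. RBL1, called lower in both lines in the main fit, gave -0.45 ± 0.41 (adjusted p = 0.712). RB1 gave 0.64 ± 0.29 (adjusted p = 0.279). The 3 calls held in each of the 23 alternative fits.

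**Figure D2:**
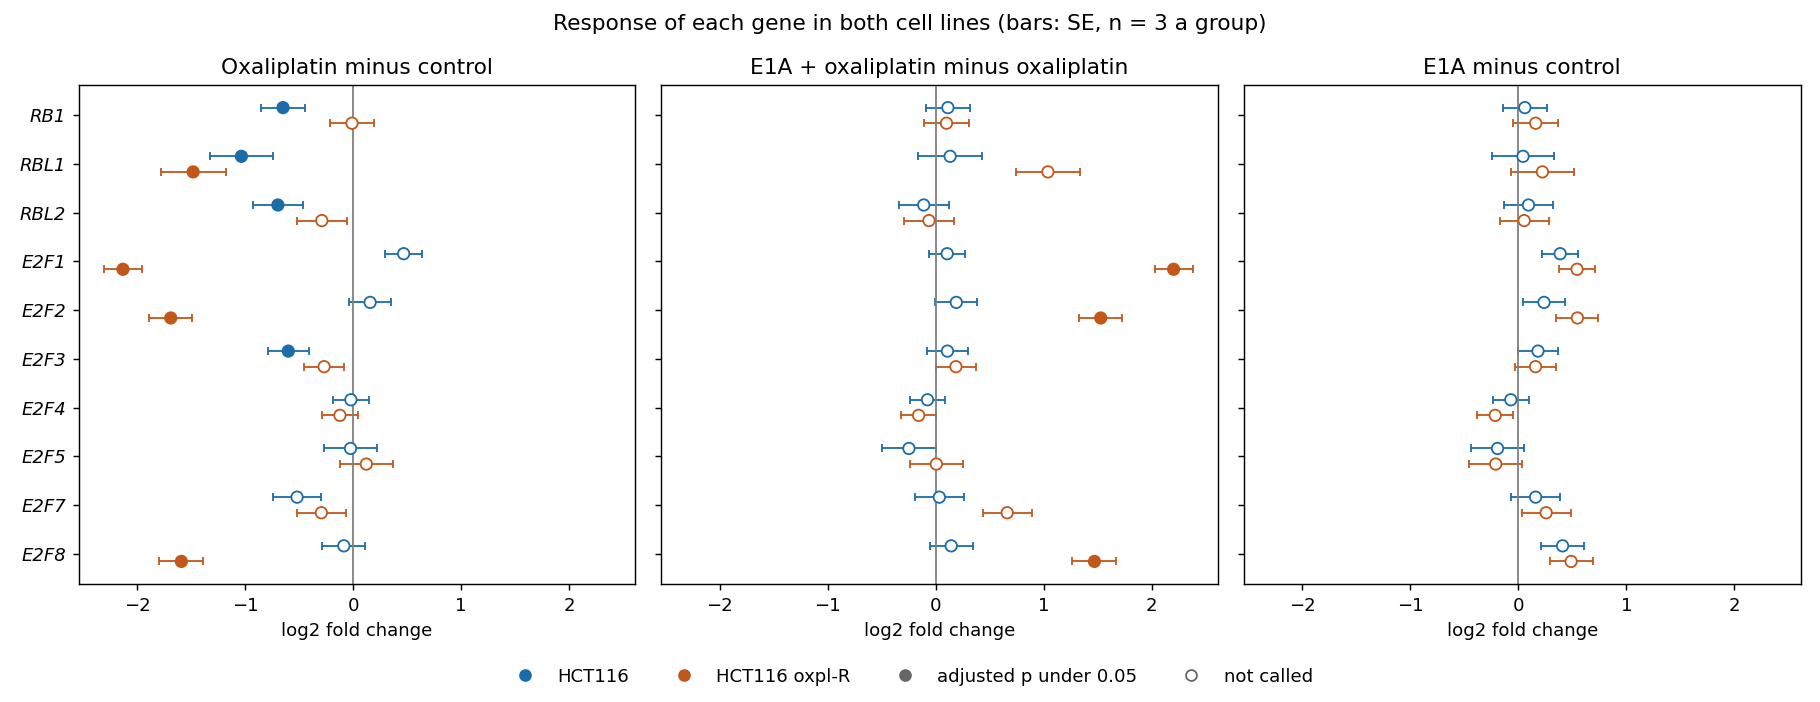
Log2 fold changes of the 10 genes for oxaliplatin against control, E1A + oxaliplatin against oxaliplatin, and E1A against control, in HCT116 (blue) and HCT116 oxpl-R (orange), with bars for SE (n = 3 a group); filled points have an adjusted p under 0.05. In HCT116 oxpl-R, E2F1, E2F2 and E2F8 are filled on the left in the first panel and on the right in the second.

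With E1A present, the oxaliplatin-treated resistant cells held more E2F1, E2F2 and E2F8. The comparison of E1A + oxaliplatin with oxaliplatin in HCT116 oxpl-R called these 3 of 10 higher, against 1.29% of all genes. E2F1 stood at 106, 80.8 and 115 CPM with E1A against 24.5, 20.3 and 20.7 CPM without, with a log2 fold change of 2.20 ± 0.18 (SE, edgeR adjusted p = 1.11e-09) or 4.60-fold. E2F2 stood at 36.2, 25.9 and 34.4 CPM, with 1.53 ± 0.20 (SE, edgeR adjusted p = 1.49e-05), and E2F8 at 32.4, 26.3 and 26.4 CPM, with 1.47 ± 0.20 (SE, edgeR adjusted p = 3.68e-05). Each of these E1A samples was above each oxaliplatin sample, and the same held for RBL1. RBL1 stood at 9.53, 7.87 and 8.10 CPM, with 1.04 ± 0.30 (adjusted p = 0.0816), not called here and called in 7 alternative fits. E2F7 gave 0.66 ± 0.23 (adjusted p = 0.21). The remaining 5 genes gave -0.16 to 0.19. In this E1A + oxaliplatin group the length shift was -0.54 in replicate 3 and 0.00 and -0.12 in the others, and the 3 calls held without replicate 3.

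The same comparison in HCT116 called none of the 10 genes, with 0.0874% of all genes called. At an unadjusted p below 0.05 the count was also 0, and DESeq2 called 0. The values ran from -0.25 for E2F5 to 0.19 for E2F2, and E2F1 gave 0.11 ± 0.17. E2F1 held 147, 124 and 116 CPM with E1A and 125, 112 and 122 CPM without, which overlap. Replicate 1 of the E1A + oxaliplatin group, with the lowest transgene level, had the highest E2F1 and the highest E2F2 of its group, at 147 and 95.9 CPM.

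The difference between the lines in what E1A did under oxaliplatin was computed after these values were seen. E2F1 gave 2.10 ± 0.24 (edgeR adjusted p = 1.81e-05) and was called in all 23 alternative fits. For E2F2 it was 1.34 ± 0.28 and for E2F8 1.33 ± 0.28 (adjusted p = 0.0458 for each), and each lost its call in 10 of 23. When 1 library was left out, E2F2 kept it without HCT116 E1A + oxaliplatin replicate 1, HCT116 oxpl-R oxaliplatin replicate 1 or HCT116 oxpl-R E1A + oxaliplatin replicate 2, and E2F8 without HCT116 oxaliplatin replicate 3, HCT116 E1A + oxaliplatin replicate 1 or HCT116 oxpl-R oxaliplatin replicate 3. The background was 0.129% of genes called higher. In HCT116 oxpl-R, the E1A effect on E2F1 was larger with oxaliplatin than without by 1.66 ± 0.24 (edgeR adjusted p = 0.00204), beside 0.036% of genes called. This comparison shares samples with those above. Fitted on the compared groups alone it was not called (adjusted p = 0.0722). In HCT116 the same difference was called for none of the 10 (0 by edgeR, 0 by DESeq2 and 0 at an unadjusted p below 0.05), beside 0.0103% of genes, and E2F1 gave -0.28 ± 0.24.

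Without oxaliplatin, E1A called none of the 10 genes in either line. All genes were called at 0.432% in HCT116 and 0.226% in HCT116 oxpl-R. DESeq2 called 0 in each line, and an unadjusted p below 0.05 was reached by 2 genes in HCT116 and 3 in HCT116 oxpl-R. In HCT116 oxpl-R, E2F1 held 168, 120.1 and 131 CPM with E1A against 86.6, 103 and 97.8 CPM without, which do not overlap, with 0.54 ± 0.17 (adjusted p = 0.358). E2F2 gave 0.55 ± 0.19 (adjusted p = 0.576) and E2F8 0.49 ± 0.20 (adjusted p = 0.777). In HCT116, E2F1 held 118, 115 and 107 CPM with E1A against 83.2, 79.2 and 97.5 CPM, with 0.39 ± 0.17 (adjusted p = 0.677), and was called when only these groups were fitted (adjusted p = 0.0265). That fit called 1559 of 16416 genes, so 1 of 10 members is near its background. No member was called for a difference between the lines in its E1A response (0 called by edgeR, 0 by DESeq2 and 0 at an unadjusted p below 0.05), with 0.0103% of genes called.

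Once E1A was present, oxaliplatin lowered E2F2 in HCT116 oxpl-R (-0.71 ± 0.19, adjusted p = 0.038), the only one of 10 called, beside 1.10% of genes. That call was lost when any of the 6 libraries was left out. E2F1 gave -0.47 ± 0.17 (adjusted p = 0.163) in the same comparison. In HCT116 oxaliplatin added to E1A lowered RBL1 (-0.95 ± 0.29, adjusted p = 0.0416), RBL2 (-0.90 ± 0.23, adjusted p = 0.0124) and E2F3 (-0.68 ± 0.19, adjusted p = 0.0226), against 4.69% of genes. With the length trend removed 1 of these was called. RBL1 also lost its call under RLE, with filterByExpr and without mitochondrial genes, in 9 of 17 alternatives in all. The length shift was -0.39 and -0.27 in E1A + oxaliplatin replicates 2 and 3 and 0.06 in replicate 1, against 0.13 to 0.47 with E1A alone. Leaving out E1A replicate 1 or 2 or E1A + oxaliplatin replicate 2 gave 0 calls, E1A + oxaliplatin replicate 1 or 3 gave 1, and E1A replicate 3 gave 4. Over all genes, 630 were called without E1A replicate 1, 666 without replicate 2 and 1390 without replicate 3, against 1574 with every library.

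The lines also differed before any treatment. E2F2, E2F3, E2F4 and E2F7 were lower in the HCT116 oxpl-R control than in the HCT116 control, 4 of 10 beside 6.93% of all genes. E2F3, an activator, stood at 42.7, 44.9 and 31.97 CPM against 83.8, 90.4 and 92.4 CPM, with -1.16 ± 0.19 (SE, edgeR adjusted p = 4.65e-05). E2F4 stood at 127, 135 and 121 CPM against 205, 205 and 235 CPM, with -0.75 ± 0.17 (SE, edgeR adjusted p = 0.00163). E2F7 gave -0.94 ± 0.23 (adjusted p = 0.00415) and E2F2 -0.67 ± 0.19 (adjusted p = 0.0172). In all 4 genes the groups did not overlap, and neither did they in RB1 and RBL1, which were not called. The call for E2F2 was lost without HCT116 control replicate 3 or HCT116 oxpl-R control replicate 1 or 2. The other 3 calls held in each alternative fit, though E2F4 and E2F7 did not pass the fold cutoff described below. E2F1 was not called, at 0.15 ± 0.17 (adjusted p = 0.652).

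E2F3 and E2F4 kept this difference in every treatment. E2F4 gave -0.90, -0.85 and -0.94 with E1A, oxaliplatin and both, and E2F3 gave -1.18, -0.83 and -0.75. The 3 comparisons share no samples. With E1A alone, E2F3, E2F4 and E2F7 were the 3 genes called lower, beside 7.75% of all genes, and E2F7 (-0.84) lost its call without HCT116 E1A replicate 1 or 2. E2F4 levels in the 12 HCT116 samples ran from 181 to 235 CPM and in the 12 HCT116 oxpl-R samples from 93.7 to 143 CPM, so the lines did not overlap in any treatment. Within each line, E2F4 was not called in any treatment comparison. With oxaliplatin, E2F1 (-2.45) and E2F2 (-2.51) differed between the lines by more than in the controls, and 6 of 10 genes were lower beside 12% of all genes. E2F7 (-0.71) was among them and lost its call in the compared groups alone, in both limma fits, and without HCT116 oxaliplatin replicate 3 or HCT116 oxpl-R oxaliplatin replicate 1. With E1A and oxaliplatin, E2F2 (-1.18), E2F3 and E2F4 were called lower, beside 8.92% of genes, and E2F1 was not (-0.36, adjusted p = 0.151). E2F1 was called lower there by DESeq2 (-0.41, adjusted p = 0.0325), with filterByExpr (adjusted p = 0.0443), and without replicate 3 of either group.

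With a further cutoff of more than 1 on the log2 scale in either direction, fewer members were called in these comparisons. Between the lines the counts were 1 untreated (beside 7.24% of all genes), 1 with E1A (6.76%), 3 with oxaliplatin (14.8%) and 1 with both agents (9.65%). E2F3 was the gene past the cutoff untreated and with E1A, and E2F1, E2F2 and E2F8 were those with oxaliplatin. In HCT116, 1 member, RBL1, passed it with oxaliplatin (6.78%). Oxaliplatin added to E1A left 0 in HCT116 (3.04%) and 0 in HCT116 oxpl-R (1.65%).

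E2F5, whose exons share 997 bases with RBIS on the opposite strand, had the narrowest range of group means, from 16.1 to 20.9 CPM or 1.30-fold, and was called in no comparison. Its samples spread the most within groups, with a median CV of 18.3% against 8.91% for E2F4. RBL2 shares 721 exonic bases with AKTIP on the opposite strand, and RBL1 shares 213 bases with a second annotated gene. Whether counting used strand is not given in the sources used here, so reads of these pairs cannot be told apart. The widest range of group means was 6.52-fold for E2F2 and 6.39-fold for E2F1, followed by 4.55-fold for E2F8.

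Ordered by group mean, E2F1 ran from 139.6 CPM in HCT116 oxpl-R with E1A through 128.8, 119.7 and 113.3 CPM in HCT116 with both agents, oxaliplatin and E1A, to 100.5 and 95.8 CPM in HCT116 oxpl-R with both agents and untreated, and 86.6 CPM in untreated HCT116. Each of these neighbours overlapped in their samples. The lowest group, HCT116 oxpl-R with oxaliplatin at 21.9 CPM, was apart from the next. For E2F8 the same group, at 10.3 CPM, was likewise apart from the next at 28.4 CPM.

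Other genes of the pathway were counted by list. The S-phase list holds 52 targets of E2F that encode replication proteins, and the G2 and M list holds 37 mitotic genes, which are driven by MYB and FOXM1 complexes. In HCT116 oxpl-R, oxaliplatin called 45 S-phase genes and 31 G2 and M genes lower and none higher, with medians of -1.60 and -1.99 against 0.01 over all genes with at least 100 mean counts. CCNA2 (cyclin A2) gave -2.47, MCM10 -2.43 and ORC1, which marks replication origins, -2.39. PLK1, a mitotic kinase, gave -2.80 and CDC20 -2.74. In HCT116, 25 S-phase genes were called lower and 1, POLD1, higher, with 14 G2 and M genes lower and medians of -0.72 and -0.85. MCM6 gave -1.53 and CCNB1 -1.46. The S-phase count in HCT116 ran from 5 to 20 without 1 library, lowest without oxaliplatin replicate 1 and 11 or 12 without a control library or oxaliplatin replicate 2. The G2 and M count was 4 without oxaliplatin replicate 1, 8 without replicate 2 and 22 without replicate 3. Calls over all genes in these fits are given above and also moved.

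**Figure D3:**
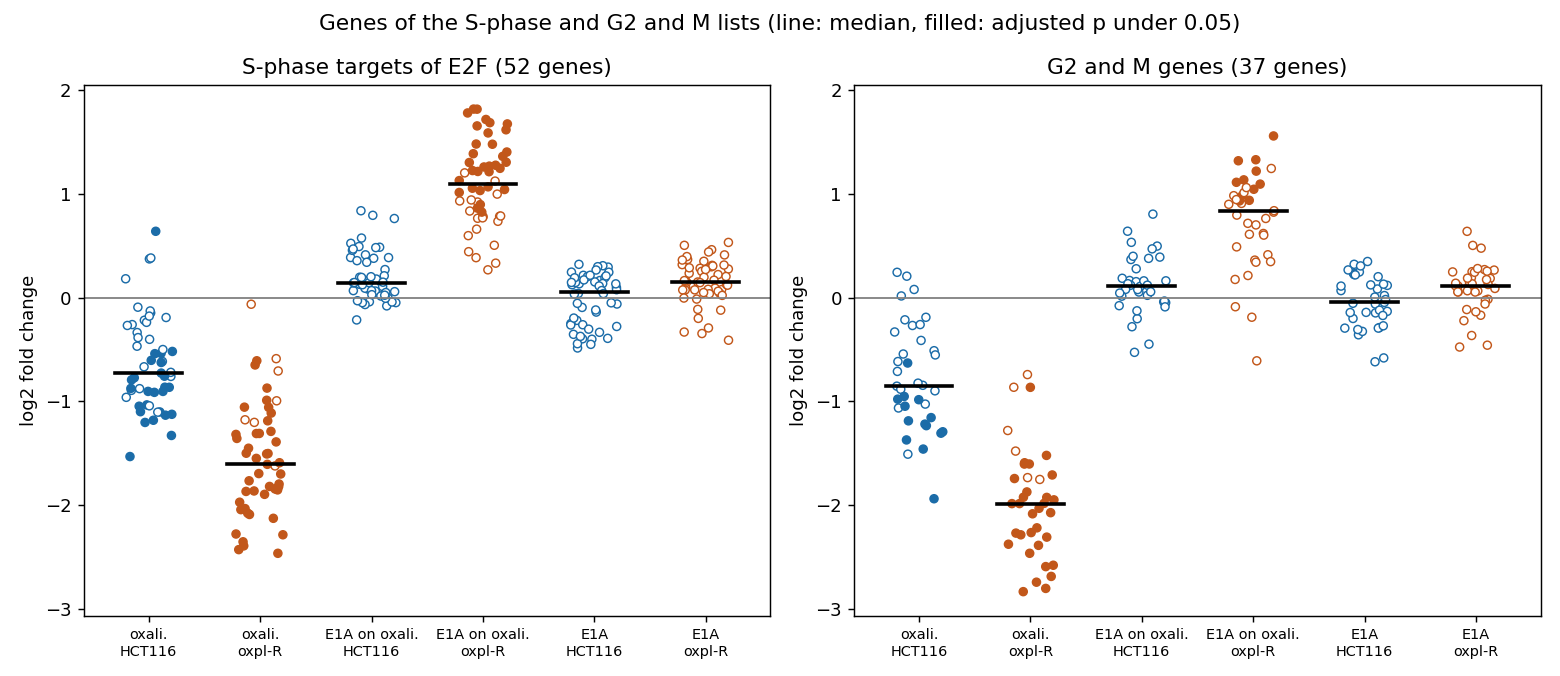
Log2 fold changes of the S-phase targets of E2F (52 genes) and the G2 and M genes (37 genes) in 6 comparisons, with HCT116 in blue and HCT116 oxpl-R in orange; each point is a gene, filled at an adjusted p under 0.05, and the black line is the median. The medians in HCT116 oxpl-R are -1.60 and -1.99 for oxaliplatin and 1.10 and 0.84 for E1A added to it.

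E1A added to oxaliplatin in HCT116 oxpl-R raised 33 of the 52 S-phase genes and 11 of the 37 G2 and M genes, with medians of 1.10 and 0.84 and none lower. When 1 library was left out, the first count ran from 25 to 37. The second ran from 8 to 18, and was 18 without HCT116 oxpl-R oxaliplatin replicate 3. In the compared groups alone the counts were 23 and 6. CDT1, a licensing factor, gave 1.82, DTL 1.82 and the histone chaperone ASF1B 1.78. MKI67 gave 1.56 and PLK1 1.33. In HCT116 the same comparison called 0 genes of each list by edgeR and by DESeq2, with 6 S-phase genes and 1 G2 and M gene at an unadjusted p below 0.05. E1A alone called 0 in either line by either tool, with at most 1 gene of each list at an unadjusted p below 0.05. Fitted on the compared groups alone, 4 S-phase and 2 G2 and M genes were called lower with E1A in HCT116, in the fit that called 1559 of 16416 genes. In the direct test between the lines, 22 S-phase and 14 G2 and M genes had a lower oxaliplatin response in HCT116 oxpl-R, and none a higher one. In the corresponding test for E1A under oxaliplatin, 8 and 3 genes were called, against 19 and 9 by DESeq2 and 1 and 0 in the compared groups alone.

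Upstream of the pocket proteins, CDKN1A rose with oxaliplatin in both lines. Its level was 144 ± 6 CPM in the HCT116 control and 1878 ± 225 CPM with the drug, and 566 ± 37 and 4149 ± 586 CPM in HCT116 oxpl-R (SD, n = 3). The log2 fold changes were 3.70 ± 0.20 and 2.87 ± 0.19. The difference between these was not called (-0.83), and CDKN1A stood at 1365 ± 233 and 3074 ± 238 CPM with E1A and oxaliplatin, neither called against oxaliplatin. CCNE2, cyclin E2 and an E2F target, fell from 27.3 ± 0.9 to 9.0 ± 5.2 CPM with oxaliplatin in HCT116 oxpl-R and stood at 50.05 ± 1.55 CPM with E1A added (2.48 ± 0.43, adjusted p = 0.000822). CCND1, cyclin D1, rose by 0.62 with oxaliplatin in that line and fell by 0.69 when E1A was added. CCNE1 was not called in these comparisons. In HCT116, 7 of the 15 genes of this list were higher with oxaliplatin, CDKN1A, CDKN2A (1.36) and CDKN1C (1.28) the most, and none was lower. In HCT116 oxpl-R, 2 were higher and 3 lower with oxaliplatin, and 5 were higher and 1 lower with E1A added.

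Of the 10 genes of E2F6 and of MuvB or MYB partners, 4 fell with oxaliplatin in each line. In HCT116 oxpl-R these included MYBL2 (-1.96), FOXM1 (-1.93) and MYBL1 (-1.41), and all 3 were higher with E1A added, at 1.64, 1.10 and 1.19. In HCT116 they included LIN54 (-0.86), LIN52 (-0.80) and the repressor E2F6 (-0.65). E2F6 gave -0.10 in HCT116 oxpl-R. DP partners of the E2Fs were present in the second table alone, and TFDP1 gave -0.75 with oxaliplatin in HCT116 oxpl-R (edgeR adjusted p = 0.0024) and -0.14 in HCT116, a difference between the lines that was not called (-0.61, adjusted p = 0.136). TFDP2 was higher in HCT116 oxpl-R than in HCT116 without treatment (0.96, adjusted p = 0.0231), with E1A (1.31), with oxaliplatin (2.63, adjusted p = 1.02e-07) and with both (1.89). Its oxaliplatin response differed between the lines by 1.68 (adjusted p = 0.0157).

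Over the 24 samples and 8863 genes with at least 100 mean counts, E2F1 was most like ASF1B (Pearson r of 0.949 for log2 CPM), CENPM and CDC25A. E2F2 was most like MYBL2 (0.984), CDT1 (0.979) and ASF1B, and E2F8 like KIF24 (0.940), GINS3 and DCLRE1B. RBL1 was most like POGLUT3 (0.973), MSH6 and LIN54, E2F3 like GPHN (0.976), and E2F4 like HGH1 (0.981). E2F5 reached no more than 0.844, with OCIAD1. Among the members, E2F1, E2F2 and E2F8 correlated at 0.886 to 0.912. RB1 and RBL2 correlated at 0.809 and E2F3 and E2F7 at 0.887. These are descriptions over samples that share groups, lines and libraries.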

How the data were processed

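RNA was sequenced from 24 samples in 8 groups, assigned from the sample labels. Per the study's methods and labels, reads were trimmed with Trimmomatic and quantified with Salmon 1.6.0, with sequence and GC bias correction, against GRCh38. The deposited tables hold estimated counts (expected counts) per gene, which the authors summarised from transcripts, and were rounded to whole numbers here. The second table, although named otherwise, holds length-scaled estimated counts by its values and was used only for alternatives and for TFDP1 and TFDP2. The last line of each table is cut off and was dropped, so genes sorted after it are not analysed here. No column lacked a sample.

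Genes with a count in any sample (19452) were fitted with edgeR 4.0.16 (R 4.3.3): TMM normalization, all 24 samples, 1 coefficient a group, glmQLFit and glmQLFTest, Benjamini-Hochberg adjustment over all genes, threshold 0.05. All adjusted p-values are from this fit unless another is named. Alternatives used RLE, filterByExpr, DESeq2 1.42.0, limma 3.58.1 with pseudocounts of 1 and 0.1 before the log2 of the second table, the compared groups alone, a replicate block, a fold cutoff of 1 on the log2 scale, and each library left out. Fits without mitochondrial genes, with a transcript length trend removed, and the test between lines of E1A under oxaliplatin were added after values were seen. The fit was tested on data simulated for E1A in HCT116 alone. There the share of false calls was above the threshold of 0.05, and part of the changes of 1 on the log2 scale went uncalled.

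Members and lists were chosen with earlier results of these data known. Named genes are the members, at most 3 called genes at each end of a list in a comparison, CDKN1A, CCNE1, CCNE2, CCND1 and E2F6, and the genes most like a member, up to 3 each (those of RB1 are not reported here). Gene overlaps and lengths are from GENCODE, and promoters from RefSeq. Labels share replicate numbers. Same-numbered samples deviated together, with every correlation over 0.1, in E1A in HCT116 oxpl-R (0.116 to 0.804), oxaliplatin added to E1A in HCT116 oxpl-R (0.471 to 0.572) and the lines under oxaliplatin (0.154 to 0.27), where the block changed no count of called members. The correlations were 0.0756 to 0.611 for oxaliplatin in HCT116 oxpl-R, where the block also changed no count. For E1A added to oxaliplatin in that line they were 0.024 to 0.307, and the block added RBL1 to the calls.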

Additional observations from a re-analysis of the deposited data

Results flagged for a closer look

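7 differences between the responses of the 2 lines, or of treated and untreated cells, passed the test of the difference itself. The oxaliplatin response was lower in HCT116 oxpl-R than in HCT116 for E2F1 (-2.60 on the log2 scale, edgeR adjusted p = 1.44e-07), E2F2 (-1.85, adjusted p = 0.000142) and E2F8 (-1.50, adjusted p = 0.00214). In HCT116 oxpl-R the response of E2F1 to E1A was greater with oxaliplatin than without by 1.66 (adjusted p = 0.00204). Under oxaliplatin the response to E1A was greater in HCT116 oxpl-R than in HCT116 for E2F1 (2.10, adjusted p = 1.81e-05), E2F2 (1.34, adjusted p = 0.0458) and E2F8 (1.33, adjusted p = 0.0458). The tests share the oxaliplatin samples of HCT116 oxpl-R.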

How the results depend on the processing

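Of 688 alternative values for the 38 called log2 fold changes of members, 606 stayed on the same side of the threshold, 82 lost the call and 0 changed direction. 24 of the 38 held under each alternative fit, among them the 4 falls with oxaliplatin and the 3 rises with E1A added in HCT116 oxpl-R. The fold cutoff was applied to counts of members and not to these values. E2F4 between the lines is among the 24 and did not pass that cutoff in any of the treatments. For oxaliplatin in HCT116 the members called higher were 1 under RLE, DESeq2 (with and without its filters), filterByExpr, the compared groups alone, the replicate block, edgeR on the length-scaled table, and without mitochondrial genes, and 0 to 1 without 1 library. The members called lower there were 1 under RLE, 2 in the compared groups alone, 1 with the length trend removed, 1 with the fold cutoff, and 0 to 5 without 1 library. E1A in HCT116 called 1 higher in the compared groups alone. Oxaliplatin added to E1A called 1 lower with the length trend removed and 0 with the fold cutoff in HCT116 (0 to 4 without 1 library), and in HCT116 oxpl-R 3 with DESeq2 with or without its filters, 2 with filterByExpr, and 0 in the compared groups alone, with the fold cutoff or without any 1 library. The fold cutoff left 1, 1, 3 and 1 members lower between the lines untreated, with E1A, with oxaliplatin and with both. Leaving out 1 library gave 3 to 4, 2 to 3, 5 to 7 (with 0 to 1 higher) and 3 to 4. In the compared groups alone, E1A by oxaliplatin in HCT116 oxpl-R called 0 and the difference between lines in E1A under oxaliplatin called 1 (1 to 3 without 1 library). E1A added to oxaliplatin in HCT116 oxpl-R called 3 to 4 members without 1 library, 25 to 37 S-phase genes and 8 to 18 G2 and M genes. In the compared groups alone it called 23 S-phase genes and 6 G2 and M genes. Oxaliplatin in HCT116 called 15 S-phase genes lower under RLE, 16 with DESeq2 without its filters, 16 with filterByExpr, 10 with the fold cutoff and 5 to 20 without 1 library, and 4 to 22 G2 and M genes. In HCT116 oxpl-R these were 40 to 48 and 27 to 35. The cause of these shifts was not tested. The replicate block called 4 members higher for E1A added to oxaliplatin in HCT116 oxpl-R against 3, and changed no other count of members except that for oxaliplatin in HCT116.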
